A study of Mus musculus with 3 samples.

Results

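Cell-cell junctions of the epidermis were followed through 39 genes, 14 of the desmosome, 9 of the adherens junction, 12 of the tight junction and 4 of the gap junction, taken by name from the 49452 gene rows of the data. All 39 were found, each as 1 row. RNA sequencing libraries had been made from 3 populations of back-skin epidermal cells of wild-type C57BL/6 mice that were 7 weeks old and in the second telogen, the resting phase of the hair cycle. Population N was negative for the surface protein CD34, population B (basal bulge stem cells) was CD34-positive with high integrin alpha chain Itga6, and population S (suprabasal bulge stem cells) was CD34-positive with low Itga6. The bulge is the stretch of the hair follicle where its stem cells rest. For every population the epidermis was loosened from the dermis with thermolysin, and the RNA of 4 mice was pooled and preamplified, so that each group is 1 library, N is a mixture of all CD34-negative epidermal cells, and no value below has a replicate error or a test.

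Desmosomes tie the keratin networks of neighbouring cells together: cadherins of the desmoglein and desmocollin families meet between the cells, and plakoglobin, plakophilins and desmoplakin link them to keratin inside. Adherens junctions do the same for actin through classical cadherins and catenins. Tight junctions, built from claudins and occludin around scaffold proteins, seal the space between cells of the granular layer of epidermis, and gap junctions are channels of connexins through which small molecules pass from cell to cell. In epidermis the desmosomal cadherins are known to follow the layers, with desmoglein 3 (Dsg3) in the lower layers and the desmoglein 1 proteins rising towards the surface.

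Levels are deposited FPKM, that is fragments scaled to transcript length in kilobases and to the depth of the library in M (mega) fragments, divided here by 1 factor per library, called scaled FPKM, and being per length they can be set side by side between genes. The step between low values put depth at 36.5 M fragments in N, 31.8 M in S and 33.5 M in B. A transcript of 2 kb at 10 FPKM rested on 636 to 730.0 fragments, a counting SD of 3.70% to 3.97%, to which amplification and differences between mice add. The sorted gene Cd34 was at 0.201, 215.3 and 144.5 in N, S and B, and the keratinocyte gene Krt5 at 817.6, 959.3 and 810.3. Keratinocyte genes, 8 of 8 measured, summed to 4030, 6483 and 4179 in N, S and B. That list includes Krt15 (1014, 3641 and 1855), also on the bulge list, and Perp (1227, 1472 and 829.9), also a junction member. Both were highest in S, as were Krt5 and Lamb3, whereas Trp63, Sfn and Krt14 were highest in N and Col17a1 in B. The sum is therefore not independent of the bulge and junction genes. Krt14, picked after its values were seen, was at 588.4, 12.7 and 276.7. Of all FPKM, genes of the mitochondrial genome took 31.3% in N, 35.9% in B and, apart from both, 83.4% in S, and every S value below rests on that library alone. A list of 10 genes of differentiating keratinocytes, 7 of them measured and none at 0 in all libraries, summed to 3745, 963.3 and 1735 in N, S and B. Krtdap, which makes up most of the sum in N and in B but not in S, was at 2868, 336.5 and 1134. Sbsn of that list, picked after its values were seen, was highest in S, at 84.9, 460.2 and 122.4, and exceeded Krtdap there. Upper follicle and sebaceous genes, 7 of 8 measured and none at 0, summed to 526.5, 143.7 and 164.2 in N, S and B, with Defb6 the most abundant at 326.2, 9.37 and 60.3. Mgst1 of that list, also picked after its values were seen, was highest in S, at 14.3, 36.6 and 24.7. Of 6 endothelial genes 0 were measured, with Egfl7 at 0.350 at most. In the other marker lists the most abundant members were Krt15 (bulge and keratinocyte, 1014, 3641 and 1855 in N, S and B), H2-Aa (Langerhans and myeloid, 13.5, 4.51 and 4.81), Thy1 (T cell, 18.3, 0.673 and 4.99), Col6a1 (fibroblast, 0.242, 25.9 and 13.9), Mitf (melanocyte, 2.08, 34.4 and 16.4) and Erbb3 (Schwann cell, 11.2, 5.80 and 4.60). In such bulk libraries fewer cells of a type and less RNA per cell cannot be told apart.

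Of the junction genes, 33 of 39 reached a mean of 1 scaled FPKM over the libraries and are called measured. Cldn7, Tjp3, Cgn, Pkp2, Gjb2 and Gjb6 did not. A gene counts as higher or lower when the log2 ratio of scaled FPKM plus 1 is at least 1 in size, which is 2-fold on that scale and understates low genes. In B against N, 9 of the 33 were lower, where 7.10% of all 11575 measured genes were lower, and 1 was higher, where 7.27% of all genes were. The median log2 ratio of the 33 was -0.47, beside -0.04 over all genes. In S against N, 8 were lower and 4 higher, with backgrounds of 10.9% and 9.56%, and the median was -0.22 beside 0.02. With the values as deposited that split was 10 lower and 1 higher, and the shares of all genes moved to 14.5% lower and 7.39% higher. In S against B, 2 were lower and 4 higher, beside 5.93% and 3.89% of all genes, and the median was 0.01 beside 0.06. The shares of junction genes lower than in N, 27.3% in B and 24.2% in S, exceeded those of all genes. So did the 12.1% higher in S against B, which is 4 genes, beside 3.89%. The 12.1% higher in S against N and the 6.06% lower in S against B were near the background. The comparisons of B and of S against N share the N library.

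**Figure D1:**
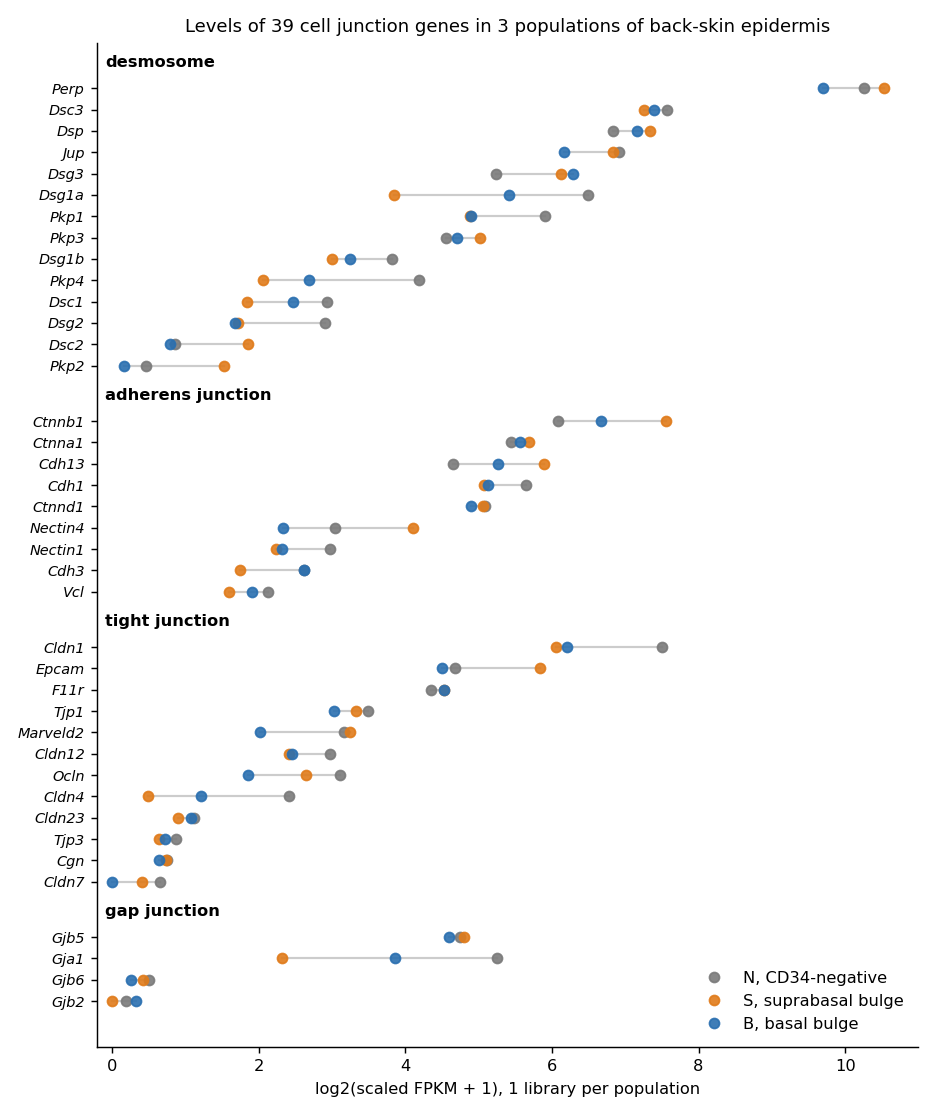
Levels of the 39 junction genes as log2(scaled FPKM + 1) on the x axis, by junction type and ordered by mean level, with 1 point per library (N grey, S orange, B blue) and no error bars, since each population has 1 library. Perp lies furthest right, at 1227, 1472 and 829.9 in N, S and B, and Dsg1a and Gja1 have the widest gaps between N and S.

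**Figure D2:**
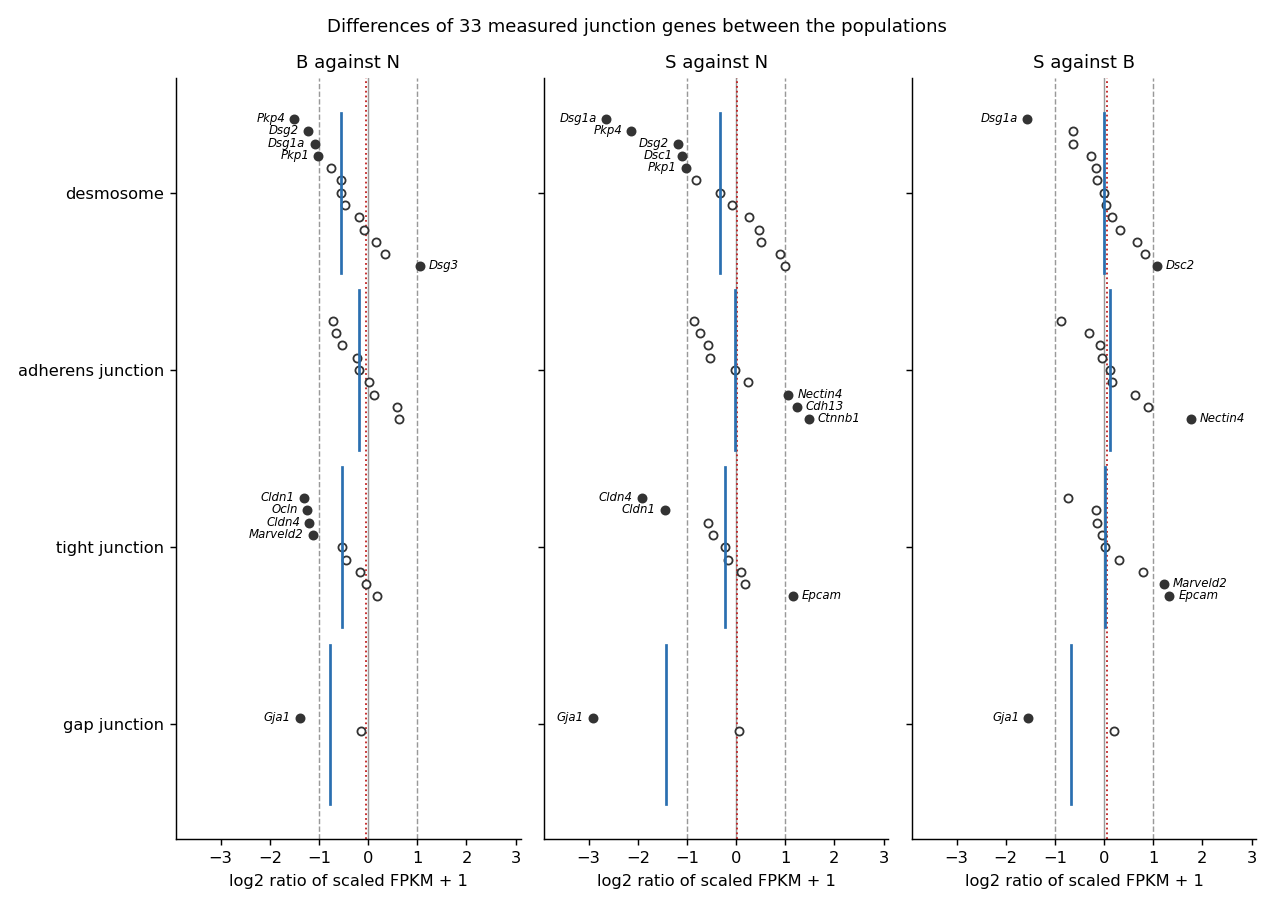
Log2 ratios of scaled FPKM + 1 of the 33 measured junction genes in the 3 comparisons (x axis), by junction type (y axis). Filled points with names lie at or past the dashed lines at 1 and -1, blue bars are medians of a type, and the red dotted line is the median of all 11575 measured genes. In S against N, Gja1 (-2.92) and Dsg1a (-2.65) lie furthest to the left and Ctnnb1 (1.48) furthest to the right.

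By order of the libraries, 14 of the 33 measured genes had N highest and S lowest (42.4%, beside 21.9% of all measured genes). Another 5 had N highest and B lowest, so that N was highest for 19 of 33 (57.6%, beside 40.4% of all genes). S was highest for 12 (36.4%, beside 39.1%), and in 6 of these B was the lowest. B was highest for 2, Dsg3 and Cdh3 (6.06%, beside 20.5%). For Cdh3 the lead of B over N is 5.16 against 5.12, and it is lost with the values as deposited.

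Promoter sequence is shown for 6 genes with large differences, Gja1, Cldn1 and Cldn4, which were lower in S and B than in N, and Ctnnb1, Nectin4 and Epcam, which were highest in S. The stretches are from RefSeq (build GRCm38.p6, the same assembly as mm10), 150 bases each, 5′ to 3′ on the strand of the gene. They end just before the transcription start, except that 2 bases are left out before the start in Cldn1 and 74 in Nectin4 because an annotated exon covers them. For Ctnnb1 the first of its listed starts was taken. Capitals mark matches to any of 6 motifs searched on both strands: AACNGGTT (Grainyhead factors), TGANTCA (AP-1), CAGGTG (Snail and Zeb E-box), GGGCGG (GC box), CTTTGA (TCF and LEF) and TATAAA, the core of the box bound by the TATA-binding protein.
Gja1 (chr10:56377150-56377299, plus strand): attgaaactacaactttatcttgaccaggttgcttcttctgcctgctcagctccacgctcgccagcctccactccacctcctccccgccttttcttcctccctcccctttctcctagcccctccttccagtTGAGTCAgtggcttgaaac
Cldn1 (chr16:26371842-26371991, minus strand): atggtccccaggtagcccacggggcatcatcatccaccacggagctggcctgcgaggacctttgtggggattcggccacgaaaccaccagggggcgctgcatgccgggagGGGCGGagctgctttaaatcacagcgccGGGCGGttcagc
Cldn4 (chr5:134946935-134947084, minus strand): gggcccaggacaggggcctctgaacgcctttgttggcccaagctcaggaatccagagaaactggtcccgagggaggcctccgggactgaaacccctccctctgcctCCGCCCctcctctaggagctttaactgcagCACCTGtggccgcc
Ctnnb1 (chr9:120933250-120933399, plus strand): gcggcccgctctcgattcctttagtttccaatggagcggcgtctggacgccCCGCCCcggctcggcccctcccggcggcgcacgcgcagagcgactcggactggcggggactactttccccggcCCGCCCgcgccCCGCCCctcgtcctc
Nectin4 (chr1:171369949-171370098, plus strand): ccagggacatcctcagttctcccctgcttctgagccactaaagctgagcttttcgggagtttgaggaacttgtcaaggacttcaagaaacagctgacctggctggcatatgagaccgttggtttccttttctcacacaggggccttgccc
Epcam (chr17:87635829-87635978, plus strand): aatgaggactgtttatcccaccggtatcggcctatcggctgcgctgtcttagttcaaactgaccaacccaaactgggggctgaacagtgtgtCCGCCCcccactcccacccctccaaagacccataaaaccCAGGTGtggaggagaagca

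The printed Gja1 stretch holds an AP-1 match that begins 19 bases before the start, Cldn1 holds GC boxes, and Cldn4 holds an E-box 14 bases before the start, a GC box, and a pair of AP-1 matches further up, outside the printed stretch, at 158 and 240 bases. Epcam holds a GC box and an E-box 19 bases before the start, and a further E-box outside the printed stretch, at 187 bases. Ctnnb1 has GC boxes, and Nectin4 holds no match. Over all 32851 promoter windows of 250 bases, 6.75% held the AP-1 motif, 17.2% the E-box, 32.7% the GC box and 1.79% the Grainyhead motif. Of the 22 junction genes with a window in RefSeq's table (31 windows, since some genes have more than 1 start), 3 held the AP-1 motif (Cldn4, F11r and Gja1), 8 the E-box, 16 the GC box, 2 the Grainyhead motif (Cgn and Gjb6), 2 the TCF and LEF motif (13.8% of all windows) and 4 the TATA box (12.4%). A gene was counted when any of its windows matched, whereas the percentages are per window, so a gene with several starts is counted more readily. The GC box and the E-box were present in both sets of 3 genes. A match is a description of the letters and was not tested for binding.

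The connexin gene Gja1 (chromosome 10, 56377300 to 56390419, mm10) had the largest log2 ratio in size between S and N, with a pseudocount of 1, of the 33 measured genes. Its product is the most widespread connexin of gap junctions. It was at 36.9, 13.5 and 3.99 in N, B and S, 9.23-fold lower in S than in N, 2.73-fold lower in B than in N and 3.38-fold lower in S than in B. The other measured connexin of the set, Gjb5 (chromosome 4, 127354809 to 127358181), was at 25.8, 26.9 and 23.2 in N, S and B, within 1.16-fold across the libraries. Gja1 therefore made up 58.3% of the summed level of the 4 connexins in N, 36.3% in B and 12.8% in S, and Gjb5 made up 40.8%, 62.4% and 86.1%. These shares need no scaling between libraries. Gjb2 and Gjb6, neighbours on chromosome 14 whose loss causes deafness, were low throughout: Gjb6 was at 0.416, 0.334 and 0.200 in N, S and B, and Gjb2 at 0.142 in N and 0.253 in B and listed at 0 in S. Of 19 further gap junction genes 3 were measured. The channel gene Panx1, a pannexin, was at 18.3, 6.30 and 4.00 in N, S and B.

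Among the claudins, which form the seal of tight junctions, Cldn1 was by far the most abundant and was lower in the bulge. Cldn1, the main claudin of epidermis (chromosome 16, 26356642 to 26371841), was at 180.7, 65.6 and 72.5 in N, S and B, a log2 ratio of -1.45 for S and -1.31 for B against N. Of the summed level of the 5 claudins it made up 93.3%, 91.7% and 91.3% in N, S and B. The other claudins of these 5 were a small part in every library. Cldn8, outside these 5 and picked after its values were seen, was highest in B, at 4.42, 2.88 and 7.44 in N, S and B. Its log2 ratio of -1.12 in S against B was past the rule. Cldn4 (chromosome 5, 134945119 to 134946934) was at 4.32, 1.32 and 0.402 in N, B and S, 10.7-fold lower in S than in N. The S value rests on about 21 fragments, with a 95% exact Poisson interval of 0.251 to 0.619 for counting error only, below the interval of 1.03 to 1.65 for B. With a pseudocount of 0.1 the log2 ratio of Cldn4 in S against B is -1.50 in place of -0.73. Cldn12 was at 6.87, 4.31 and 4.47 in N, S and B, and Cldn23 at 1.17, 0.868 and 1.10, both within the rule. Cldn7 was at 0.577 in N and 0.326 in S and listed at 0 in B.

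Occludin and tricellulin, the membrane proteins of bicellular and of 3-cell contacts, were lowest in B. Ocln (chromosome 13, 100496507 to 100552718) was at 7.66, 5.27 and 2.63 in N, S and B, 2.91-fold lower in B than in N. Marveld2, which encodes tricellulin and lies close to Ocln on the same chromosome (100595957 to 100616971), was at 7.92, 8.49 and 3.06 in N, S and B. Its log2 ratio was -1.13 for B against N and 1.22 for S against B. S and N were within 1.07-fold for Marveld2, and their order flips with the values as deposited. The scaffold genes differed less, with Tjp1 at 10.2, 9.02 and 7.15 in N, S and B, and Tjp3 (0.821, 0.557 and 0.647) and the cingulin gene Cgn (0.679, 0.664 and 0.557) below the mean of 1 that counts as measured. F11r, which encodes a junctional adhesion molecule, was at 19.3, 22.1 and 22.0. Of the 9 measured tight junction genes, B against N gave 4 lower and 0 higher, beside 7.10% and 7.27% of all genes. S against N gave 2 lower and 1 higher, beside 10.9% and 9.56%, and the 1 of 9 higher (11.1%) is near that background.

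The gene higher in S was Epcam (chromosome 17, 87635979 to 87651106), whose product, an epithelial adhesion molecule, binds claudins. It was at 24.6, 55.9 and 21.7 in N, S and B, so that S exceeded N by 2.27-fold and B by 2.58-fold. The difference from N falls below the rule with the values as deposited (log2 ratio 0.90 in place of 1.15), whereas that from B stays past it in all settings tried. Langerhans cells also express Epcam. Their defining gene Cd207 was at 0.126, 0.343 and 0.220 in N, S and B. The list of Langerhans and myeloid genes (3 of 8 measured, none at 0 in all) summed to 22.4, 16.3 and 10.5. Of the 3 measured, H2-Aa (13.5, 4.51 and 4.81 in N, S and B) and Cd74 (6.19, 3.99 and 3.03) were highest in N. Cd68 was highest in S, at 1.69, 6.02 and 2.11, past the rule against N and B. The part of Langerhans and myeloid cells in the Epcam difference was not tested. Of 32 further tight junction genes 19 were measured. In B against N, 3 were lower and 1 higher (15.8% and 5.26%, beside 7.10% and 7.27% of all genes), with a median of -0.22. In S against N, 3 were lower and 2 higher (15.8% and 10.5%, beside 10.9% and 9.56%), with a median of -0.32. The virus receptor and junction protein gene Cxadr was at 41.6, 13.6 and 19.5 in N, S and B. The tricellular receptor gene Lsr (12.8, 9.66 and 7.33) and the polarity gene Pard3 (15.0, 10.2 and 9.72) stayed within the rule.

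In the desmosome, the make-up of the desmogleins differed most between libraries. The desmoglein genes form 1 cluster with the desmocollins on chromosome 18, from Dsc3 (19960930 to 20002097) to Dsg2 (20558074 to 20604521). Dsg1a (20310811 to 20343350) was at 89.3, 41.5 and 13.4 in N, B and S, 6.65-fold lower in S than in N and 3.09-fold lower in S than in B. Dsg3 (20510304 to 20541310) was at 36.7, 68.7 and 76.8 in N, S and B, 2.09-fold higher in B than in N. Its log2 ratio of 1.05 in B against N falls to 0.88 with the values as deposited and to 0.89 with libraries set to equal sums outside mitochondrial and small RNA, below the rule. The ratio of Dsg3 to Dsg1a within a library, which needs no scaling, was 0.411, 1.85 and 5.11 in N, B and S. Dsg3 made up 25.2% of the desmogleins in N, 59.5% in B and 75.2% in S, and Dsg1a made up 61.3%, 32.1% and 14.7%. Dsg1a and Dsg1b (13.1, 6.98 and 8.52 in N, S and B) are related copies whose reads may be split unevenly. Their sum was 102.4, 20.4 and 50.0 in N, S and B, the same order as Dsg1a. Dsg2, which is known from simple epithelia and from the hair follicle, was at 6.52, 2.30 and 2.21 in N, S and B.

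The summed level of the differentiating keratinocyte list has the same order as Dsg1a, Gja1, Cldn4 and Pkp4, with N highest and S lowest, though 5 of its 10 genes have another order. That of the upper follicle and sebaceous list (526.5, 143.7 and 164.2 in N, S and B) has this order too, though Plet1, Mgst1 and Awat2 do not. The summed level of the 7 T-cell genes (20.1, 1.97 and 6.11 in N, S and B) has it through Thy1, the 1 measured gene of that list, and Cd3e, a defining gene, was at 1.18 at most. The part of these lists in the differences was not tested.

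Desmocollins were dominated by Dsc3, the form of the lower layers, in every library. Dsc3 was at 189.5, 151.5 and 167.0 in N, S and B and held 96.2%, 96.7% and 96.9% of the summed level of the 3 desmocollins. Dsc1, the form of the upper layers, was at 6.64, 4.53 and 2.57 in N, B and S, a log2 ratio of -1.10 in S against N. Dsc2 was at 0.820, 0.728 and 2.63 in N, B and S, 3.61-fold higher in S than in B. With about 353 fragments in S and 109 in B, its counting intervals do not meet (0.599 to 0.879 in B), and its log2 ratio of 1.07 was just past the rule and falls to 1.00, just short of it, with the values as deposited. Against N the log2 ratio of Dsc2 in S was 0.99, just under the rule, and 1.57 with a pseudocount of 0.1. The share of Dsc3 thus stayed within a narrow range, unlike that of Dsg3.

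The plaque proteins differed among themselves. Desmoplakin, Dsp (chromosome 13, 38151328 to 38198577), anchors keratin and was at 112.9, 160.9 and 142.7 in N, S and B, within the rule. Plakoglobin, Jup (chromosome 11, 100368958 to 100397763), which serves desmosomes and adherens junctions, was at 119.9, 113.4 and 70.6. The ratio of Dsp to Jup was 0.942 in N, 1.42 in S and, the highest, 2.02 in B. Of the plakophilins, Pkp1, the main one of the upper epidermis, was at 58.7, 28.5 and 28.7 in N, S and B, with log2 ratios of -1.02 and -1.01 against N. Pkp4, which also sits at adherens junctions, was at 17.2, 3.16 and 5.45 in N, S and B, 5.44-fold lower in S than in N. Pkp3 was at 22.4, 31.4 and 25.0 and was the most abundant plakophilin in S, with 48.3% of the summed level against 22.7% in N. Pkp2, of heart and simple epithelia, was at 0.380, 1.87 and 0.119 in N, S and B. Its mean was below 1, and the S value rests on about 157 fragments against 11 in B. Perp, a tetraspan membrane protein gene needed for desmosomes and induced by p63, was the most abundant of the 39, at 1227, 1472 and 829.9 in N, S and B. Of the 13 measured desmosome genes, 4 were lower and 1 higher in B against N (30.8% and 7.69%, beside 7.10% and 7.27% of all genes). For S against N the counts were 5 lower and 0 higher (38.5% lower, beside 10.9%, with 9.56% of all genes higher). Of 5 further desmosome and plakin genes 3 were measured and 0 passed the rule in any comparison, with the periplakin gene Ppl at 19.0, 12.4 and 16.8 in N, S and B.

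**Figure D3:**
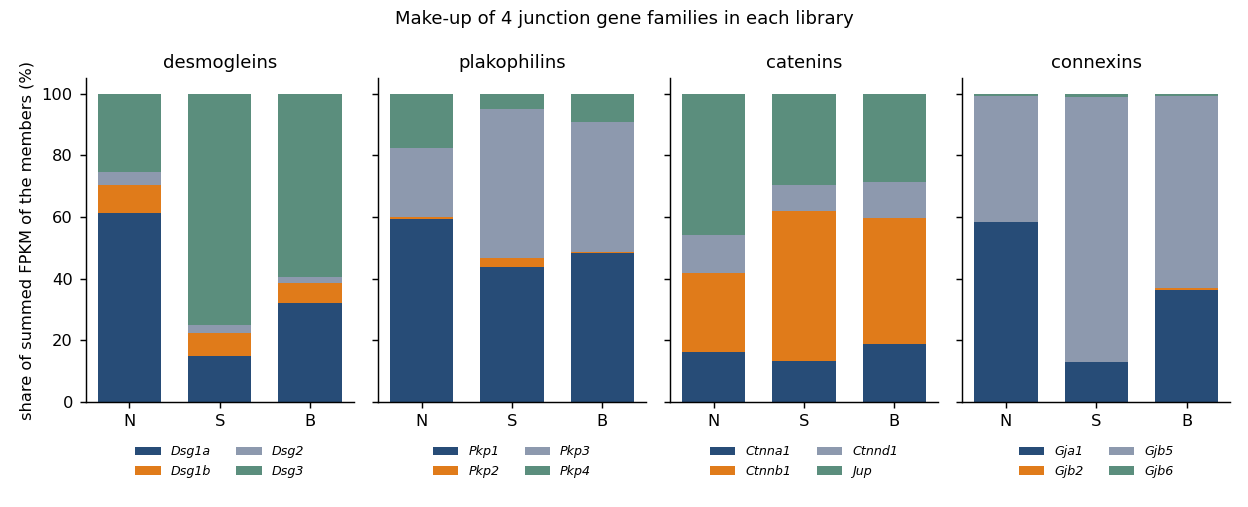
Share of the summed FPKM (y axis, %) that each member holds within 4 families in the libraries N, S and B, from a bar starting at 0, with no error bars since n is 1. Dsg3 takes 25.2% of desmogleins in N and 75.2% in S, Ctnnb1 25.4% and 48.9% of the catenins with plakoglobin, and Gjb5 40.8% and 86.1% of connexins.

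In the adherens junction, beta-catenin was highest in S and the classical cadherins were not. Ctnnb1 (chromosome 9, 120929216 to 120960507), which binds cadherins and also carries Wnt signals to the nucleus, was at 66.5, 187.6 and 101.0 in N, S and B, 2.82-fold higher in S than in N (log2 ratio 1.48). Its partner Ctnna1, which links it to actin, was at 42.6, 50.4 and 46.1 in N, S and B. Ctnnd1, which keeps cadherins at the membrane, was at 33.0, 32.2 and 28.7. The ratio of Ctnnb1 to Ctnna1 was thus 1.56, 2.19 and 3.72 in N, B and S, and that of Ctnnb1 to Jup 0.555, 1.43 and 1.65. Ctnnb1 shares annotated bases with Ulk4 on the other strand, Ctnnd1 with another gene model on its own strand, Ctnna1 with Lrrtm2 and Vcl with Ap3m1, and Tjp3 with Apba3, Dsp with Gm10129 and Dsg2 with Gm16090. The strand used in counting is not given in the sources used here, so reads of these pairs could be split.

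E-cadherin, Cdh1 (chromosome 8, 106603351 to 106670246), was at 49.2, 32.7 and 33.8 in N, S and B, within the rule. P-cadherin, Cdh3, which lies next to it (106510891 to 106557297), was at 5.12, 2.36 and 5.16 in N, S and B, a log2 ratio of -0.86 for S against N and -0.87 for S against B. With a pseudocount of 0.1 both pass the rule, at -1.08 and -1.09, and with the values as deposited that against N does, at -1.06. Cdh13, a cadherin held by a lipid anchor with no tail for catenins, was at 24.2, 37.6 and 58.2 in N, B and S, 2.40-fold higher in S than in N. With the values as deposited its log2 ratio of 1.23 becomes 0.98. Endothelial cells also express Cdh13, and their 6 marker genes summed to 0.220, 0.685 and 0.644 in N, S and B. Within the 3 cadherins Cdh13 held 30.8% of the summed level in N, 49.1% in B and 62.4% in S, while Cdh1 held 62.7%, 44.1% and 35.1%.

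The nectins, which meet between cells ahead of cadherins, went in different directions. Nectin4 (chromosome 1, 171370099 to 171388598) was at 7.23, 16.2 and 4.05 in N, S and B, 4.00-fold higher in S than in B and 2.24-fold higher than in N. Its log2 ratio against B was 1.77, the largest towards S of the 33 measured genes. Against N it was 1.06, and fell to 0.83 with the values as deposited and to 0.92 with equal sums. Nectin1 was at 6.86, 3.70 and 3.99 in N, S and B. The ratio of Nectin4 to Nectin1 was 1.05, 1.01 and 4.38 in N, B and S. Vinculin, Vcl, which joins the complex under tension, was at 3.36, 2.03 and 2.75. Of the 9 adherens junction genes, 0 passed the rule in B against N, where 7.27% of all genes were higher and 7.10% lower. In S against N 3 were higher and 0 lower, beside 9.56% and 10.9%, and in S against B 1 was higher and 0 lower, beside 3.89% and 5.93%.

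Further adherens junction genes, a list of 27 partners and regulators of which 17 were measured, had more members higher than lower in each comparison. In S against N, 9 were higher and 2 lower (52.9% and 11.8%, beside 9.56% and 10.9% of all genes), with a median log2 ratio of 1.33, and in B against N 5 were higher and 1 lower (29.4% and 5.88%, beside 7.27% and 7.10%), with a median of 0.22. In S against B, 3 were higher and 1 lower (17.6% and 5.88%, beside 3.89% and 5.93%). Among those named by rule, Afdn, the afadin gene that couples nectins to actin, was at 21.6, 85.5 and 78.5 in N, S and B. Zyx, which encodes zyxin, a protein recruited to actin under tension, was at 4.95, 24.1 and 15.4. Ssx2ip, whose product binds afadin, was at 3.74, 27.0 and 8.69 in N, S and B, a 7.21-fold difference between S and N. Ctnnal1, a relative of alpha-catenin, was at 27.4, 15.9 and 2.03 in N, B and S, 13.5-fold lower in S than in N. Lmo7 (10.8, 40.9 and 12.8) and Enah (6.47, 22.7 and 15.2), both picked after their values were seen, were also past the rule in S against N. The fibroblast list (2 of 7 genes measured) summed to 0.817, 28.5 and 16.0 in N, S and B and the melanocyte list (1 of 6 measured) to 2.16, 35.3 and 17.5, neither with a gene at 0 in all libraries. Col1a1, a defining fibroblast gene, was at 0.115 at most. Col1a2, 1 of the 2 measured fibroblast genes, was at 0.103, 1.34 and 1.77 in N, S and B. Its log2 ratio was 1.09 in S and 1.33 in B against N, both past the rule. The part of these cells in the adherens junction differences was not tested.

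**Figure D4:**
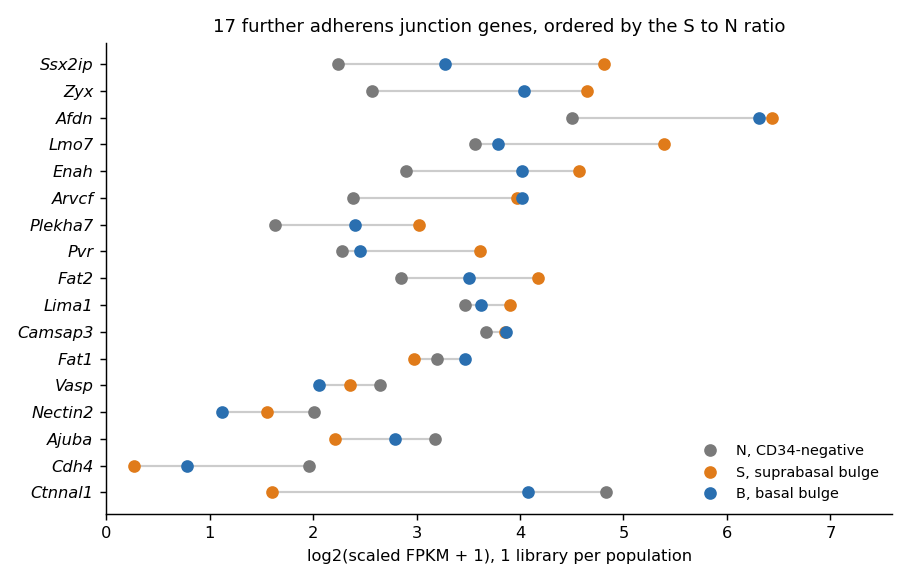
Levels of the 17 measured further adherens junction genes as log2(scaled FPKM + 1) on the x axis, 1 point per library (N grey, S orange, B blue), ordered by the ratio of S to N. From Ssx2ip down to Fat2, 9 genes lie past the rule towards S, and Ctnnal1 and Cdh4 lie at the other end.

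Of 15 transcription factors and splicing regulators known to act on junction genes, 11 were measured. In B against N 0 passed the rule, beside 7.27% of all genes higher and 7.10% lower. There were 3 lower and 0 higher in S against N, beside 10.9% and 9.56%. Klf5 was at 50.1, 16.8 and 25.2 in N, S and B. Snai2, a repressor of epithelial cadherins, was at 21.4, 10.6 and 30.3 in N, S and B, 2.86-fold lower in S than in B. The splicing regulator gene Esrp2, at 16.5, 11.2 and 8.89, and the Grainyhead factor gene Grhl1, at 8.44, 6.79 and 4.99, were within the rule in each comparison. Ovol1 (8.19, 1.58 and 3.71) and Grhl3 (2.96, 0.468 and 1.92), both picked after their values were seen, were the other 2 of the 3 below N in S.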

How the data were processed

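Per the labels, 3 libraries were made from flow-sorted epidermal cells, 1 each for N, S and B, with pooled RNA preamplified from poly(T) and random primers. The authors deposited FPKM per Ensembl gene with positions, and per the file headers this holds for N and S. The B column carries only a population name, and its unit was taken from its values. The submitters' processing notes list TopHat2 2.0.12, Cufflinks 2.1.1, DESeq2 and mm10 without saying what each did, and the gene annotation is not given in the sources used here. Gene symbols came from a table of names for 49109 rows and from GENCODE M21 for 86, and 257 rows without one were left out. Rows of 1 symbol were summed. The scaling factors, medians of ratios taken over 18559 genes with no 0, were 1.10 (N), 0.923 (S) and 0.981 (B). A pseudocount of 1 was used. No test was possible with 1 library per group. Intervals are exact Poisson on fragments estimated from FPKM, transcript length and depth, and cover counting error only. Depth came from 1-exon genes of at least 3000 bp, where 99.5% to 100.0% of values under 10 fragments were within 0.1 of an integer, where 20.0% would be met by chance. A transcript listed at 0 may be a failed estimate, since a gene above 100 FPKM elsewhere is listed at 0 in B. Genes named beyond the 39 are the 4 with the largest ratio in each further list at a mean of 5 or more, unless said otherwise, and the most abundant of each marker list. Some genes that this rule names are not reported here. The members and lists were chosen with earlier results of these data known. Python 3.11.15, numpy 2.4.6, pandas 2.3.3 and matplotlib 3.10.9 were used.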

Additional observations from a re-analysis of the deposited data

How the results depend on the processing

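Each count of junction genes was recomputed with the values as deposited, with factors over protein-coding genes, with equal sums outside mitochondrial and small RNA, with pseudocounts of 0.1 and 0.5, with no filter or a mean of at least 5, and with 1 row per symbol. With the values as deposited the median log2 ratio of all genes was -0.18 for B and for S against N, against -0.04 and 0.02, and ratios against N shift by about as much. The counts that moved by over 1.5 times were these: 0 genes higher in B than in N with the values as deposited and 0 with equal sums (1 otherwise), 1 gene higher in S than in N with the values as deposited (4), 4 genes lower in S than in B with a pseudocount of 0.1 (2), and 5 genes lower in S than in N with a mean of at least 5 (8), where 25 genes are tested. The shares of all genes in these 5 cases, in the same order, were 6.19%, 6.18%, 7.39%, 9.28% and 10.4%. In the main setting they were 7.27%, 7.27%, 9.56%, 5.93% and 10.9%. No member past the rule changed direction. The 5 calls lost with the values as deposited were Cdh13, Epcam and Nectin4 in S against N, Dsg3 in B against N and Dsc2 in S against B, and 2 were gained, Cdh3 (-1.06) and Dsg1b (-1.05) in S against N. The cause was not tested. No paired analysis was possible because each group has 1 library, and no replicate could be left out for the same reason. Depth limits the low genes: 2 of the 33 measured genes rest on under 100 fragments in a library.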
